A study of Arabidopsis thaliana with 4 samples.

Results

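In seedlings of the allantoinase mutant aln-1 of Arabidopsis thaliana, 68 nuclear genes had clearly lower scores than in the wild type (WT) but did not drop to the low end of the array. These genes were chosen by the measured values themselves. A gene was taken when its mean normalized score in aln-1 was lower than in the WT by at least 0.5, when both aln-1 arrays lay below both WT arrays, and when the aln-1 mean was at least 0. Of 12719 genes with a name, 77 met these criteria, and 9 of them were left out because they are encoded in the chloroplast, belong to the UGT, CYP or GST families, or are 1 of 4 loci set aside. Because the aln-1 to WT difference defined the 68 genes, their differences are given as a description, with no test.

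The arrays measured total RNA from the aerial parts of seedlings harvested at 2 weeks. The aln-1 seedlings carry a T-DNA insertion in ALN, the gene for allantoinase, in the Col-0 background, and are a single insertion line with 2 arrays. The WT seedlings were Col-0 without the insertion, also with 2 arrays. Both genotypes were grown aseptically on half-strength Murashige and Skoog medium with sucrose under 16 h of light and 8 h of darkness. Nothing in the sources used here states that the 2 arrays of a genotype came from separate cultures, so the spread between them may be technical. A lower score in such tissue cannot tell fewer cells of a type from less RNA per cell.

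Allantoinase opens the ring of allantoin, a nitrogen-rich product of purine breakdown, and plants without it accumulate allantoin. Purine breakdown returns nitrogen to metabolism, and allantoin has been linked to the stress hormones abscisic acid (ABA) and jasmonic acid (JA) in leaves. Genes with a reduced score in such a mutant can have very different roles. Those named below span defense, the chloroplast, the cell wall, the leaf surface and serine carboxypeptidase-like enzymes.

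The scores come from a three-parameter lognormal normalization, and no source used here gives their log base or a detection limit. All differences below are therefore in score units, aln-1 minus WT, and not in folds. Scores of all probe sets ran from -1.01 to 3.08. The array medians were 0.155 and 0.157 in aln-1 and 0.174 and 0.174 in the WT, and the median difference over everything tested was -0.03. The probe set of ALN itself gave -0.0466 and 0.00508 in aln-1, against 0.367 and 0.442 in the WT, a difference of -0.425 ± 0.0505 (SE, n = 2 arrays each, limma adjusted p = 0.0116). No source used here places this probe set relative to the insertion. Without WT replicate 1 the adjusted p for ALN was 0.0845, and without WT replicate 2 it was 0.0726.

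The 68 genes fell by a median of 0.592, and the differences ran from -1.19 to -0.501. In 4 genes the difference was -1 or lower, in 12 it lay between -1 and -0.7, and in 52 it lay above -0.7. The aln-1 means had a median of 0.367 and ran from 0.0138 to 1.92. The WT means had a median of 1.00 and ran from 0.563 to 2.47. Among all genes with a name, both aln-1 arrays lay below both WT arrays in 41% (5211 genes), and 1.54% (196 genes) were also lower by 0.5 or more. In the limma fit over 21754 genes and unnamed probe sets, 8.17% were called lower and 7.42% higher at an adjusted p under 0.05.

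The description "still expressed" holds in part. A score of 0 is not a detection limit and lies below the median of every array. In aln-1, 41.2% of all that was tested scored below 0 on either array, against 39.3% and 40.3% on the WT arrays. The aln-1 mean was above the median aln-1 mean of everything tested, 0.155, in 48 of the 68 genes and at or below it in 20. In 10 genes 1 of the aln-1 arrays was under 0. The typical member moved to a score above that of 61.0% of everything tested in aln-1, against 86.8% in the WT (medians over the 68 genes).

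**Figure D1:**
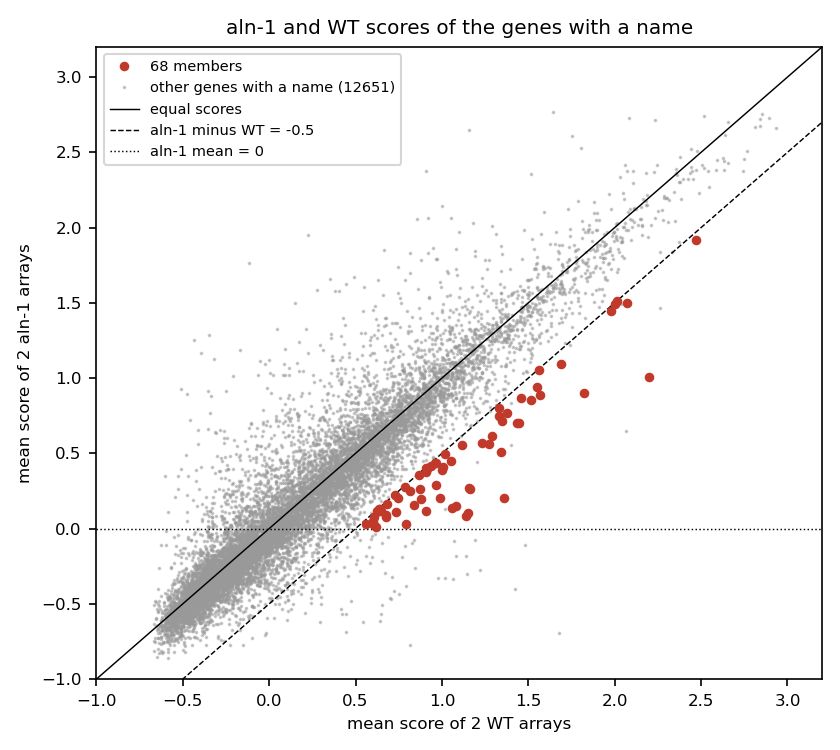
Mean score of the 2 aln-1 arrays (vertical axis) against the mean score of the 2 WT arrays (horizontal axis) for each gene with a name, in deposited score units, with the 68 members in red. The members lie below the dashed line of a difference of -0.5 and above the dotted line of an aln-1 mean of 0, and reach from WT means of 0.563 to 2.47.

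Only 8 of the 68 genes are named here beyond their locus, 60 being given by locus alone. The 8 are those with a symbol other than the locus, together with CER26, whose name is a synonym. Synonyms of the other members were not searched. Among all genes with a name tested, 11.9% had a symbol other than the locus, a share that counts no synonyms. The named members fall into 4 roles, which are defense, the chloroplast, the cell wall and leaf surface, and serine carboxypeptidase-like enzymes.

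Both defense-related members with a name were among the 5 largest falls. CHI (AT2G43570) is listed as a putative chitinase, an enzyme class that cuts chitin, the polymer of fungal cell walls. It scored 0.135 and 0.0765 on the aln-1 arrays, against 1.56 and 0.735 on the WT arrays. The 2 WT arrays of CHI lay 0.827 apart, more than in any other member, and the difference of -1.04 shrank to -0.629 without WT replicate 1. CSA1 (AT5G17880) encodes an intracellular immune receptor of the TIR-NBS-LRR class that was named after a shade-avoidance phenotype. It scored 0.207 and 0.0992 in aln-1, against 1.12 and 1.04 in the WT, and its difference of -0.926 was many times the distance between replicates in either genotype.

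The list of chitinases held 7 genes, and others could be missing from it because product names were not used. AT2G43580, directly beside CHI and not in the list, was at -0.253 and was not called (limma adjusted p = 0.178). Of the other chitinase genes listed, 1 was matched to a probe set with a single annotated gene. This gene, ChiC, which is not a member, was at -0.297 ± 0.0459 (SE, n = 2 each) with a limma adjusted p of 0.0196, and so was called lower as well. Its adjusted p was 0.0544 without aln-1 replicate 2, 0.131 without WT replicate 1 and 0.114 without WT replicate 2.

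The chloroplast was represented by CYTC6A and SUFE2. CYTC6A (AT5G45040) encodes cytochrome c6A, a small heme protein of the thylakoid lumen. Its scores were 0.244 and 0.159 in aln-1 and 0.969 and 1.01 in the WT, a difference of -0.789 with replicates close together. SUFE2 (AT1G67810), whose table name is sulfur E2, belongs to the SufE proteins that activate the plastid enzyme mobilizing sulfur from cysteine for iron-sulfur clusters. It scored -0.0573 and 0.212 in aln-1, against 0.779 and 0.576 in the WT, a difference of -0.60. The first aln-1 array of SUFE2 was therefore under 0, and here it was the lower of the pair. The 2 other cytochrome c genes measured, CYTC-1 and CYTC-2, were not called in either direction. They are not read here as chloroplast genes.

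The cell wall and the leaf surface were represented by PMEPCRF and CER26. PMEPCRF (AT5G53370) encodes a pectin methylesterase, an enzyme that removes methyl groups from wall pectin. It scored 0.792 and 0.444 in aln-1 and 1.34 and 1.25 in the WT, a difference of -0.674. A second gene of this family, ATPMEPCRB, was also called lower, at -0.299 ± 0.0419 (SE, n = 2 each, limma adjusted p = 0.0161), with adjusted p of 0.127 without WT replicate 1 and 0.0948 without WT replicate 2. The 2 remaining pectin methylesterase genes measured were not called. CER26 (AT4G13840) takes part in making the very-long-chain fatty acids of leaf wax. It was the most even of the named members, with 1.13 and 1.06 in aln-1, against 1.7 and 1.68 in the WT, a difference of -0.594. The list of wax genes did not separate genes that promote wax from genes that repress it, so its genes are not read together. AT5G61590, the other gene of that list measured, had a difference of -0.231 and did not pass the test (limma adjusted p = 0.0884). It was called without aln-1 replicate 1 (-0.308, adjusted p = 0.0420) and with the replicate number as a block (adjusted p = 0.0434), and was at -0.153 without aln-1 replicate 2.

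A pair of members were serine carboxypeptidase-like genes, from a family of hydrolase-fold proteins some of which act as acyltransferases on plant metabolites. The gene scpl35 (AT5G08260) scored 0.901 and 0.634 in aln-1 and 1.42 and 1.34 in the WT, a difference of -0.612. SCPL34 (AT5G23210) scored 0.211 and 0.0472 in aln-1, against 0.635 and 0.642 in the WT, a difference of -0.510. Among the 27 other measured genes of the family, limma called 0 lower (adjusted p under 0.05) and 2 higher (7.41%), and 25 did not pass the test. Among all tested, 8.17% were called lower and 7.42% higher. The 27 leave out the 2 members, which had the largest falls of the family, while the shares over all tested keep the members in. The 2 genes called higher were scpl42, at 0.480 and 0.310 in aln-1 and -0.461 and -0.561 in the WT (difference 0.906 ± 0.0746, SE, limma adjusted p = 0.00613), and scpl48, with a difference of 0.448 ± 0.0522 (SE, limma adjusted p = 0.0112). The lowest of the other members of the family, scpl31, was at -0.477 with an adjusted p of 0.0562. It was called without aln-1 replicate 1 (-0.649, adjusted p = 0.00981) and in a fit with the replicate number as a block (adjusted p = 0.0148), and was at -0.305 without aln-1 replicate 2. Without WT replicate 1 the adjusted p was 0.0581 for scpl42 and 0.105 for scpl48, and for scpl48 it was 0.0705 without WT replicate 2. The median difference of the 27 genes was -0.0495, against -0.0332 over all genes with a name.

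**Figure D2:**
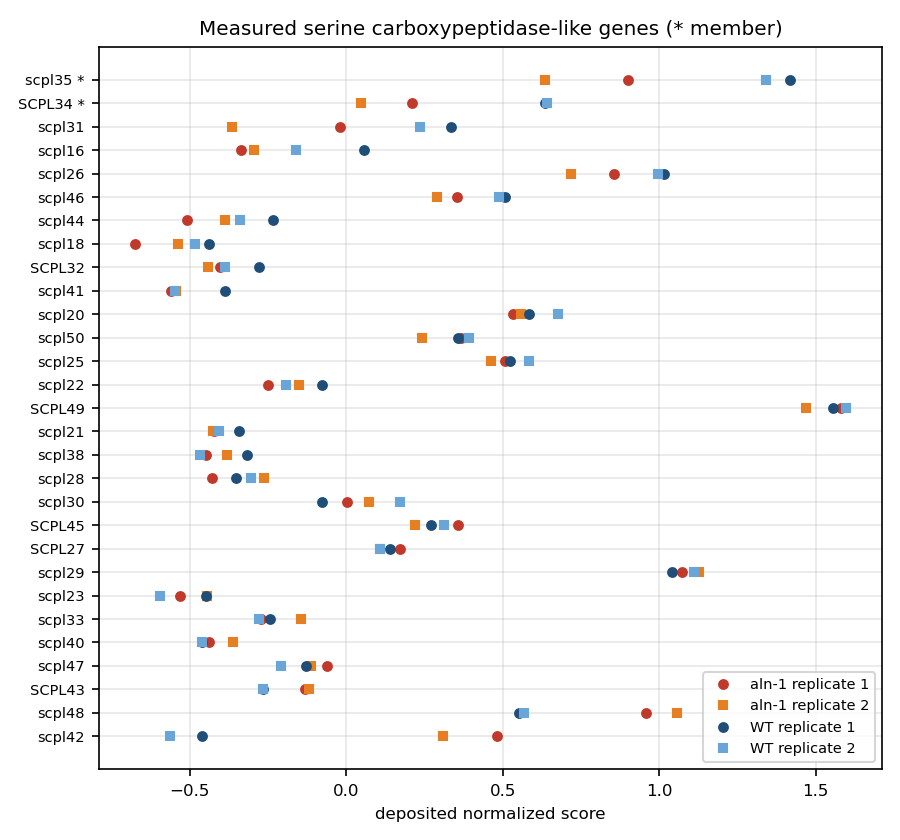
Scores (horizontal axis, deposited score units) of the 29 measured serine carboxypeptidase-like genes on each of the 2 aln-1 arrays (red and orange) and 2 WT arrays (dark and light blue), ordered by the aln-1 minus WT difference from the most negative at the top. The 2 members, marked with an asterisk, lie at the top, and scpl48 and scpl42 at the bottom have both aln-1 points above both WT points.

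Most of the largest falls belonged to genes known here only by locus. AT3G28270 had the largest of all, with 1.03 and 0.982 in aln-1, against 2.15 and 2.25 in the WT (difference -1.19). Its WT mean was the second highest among the members, and its groups stood 1.12 apart at their nearest points, the widest gap of the 68. AT2G35820 scored 0.359 and 0.0468 in aln-1, against 1.45 and 1.27 in the WT (difference -1.16). AT3G28320 scored 0.0481 and 0.121 in aln-1, against 1.03 and 1.25 in the WT (difference -1.05). These last 2 genes were thus near the array median or below it in aln-1 and far above it in the WT.

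A second tier lay close to a difference of -0.9. AT1G31690 scored 0.163 and 0.107 in aln-1, against 1.11 and 1.00 in the WT. AT1G19960 scored 1.07 and 0.732 in aln-1, against 1.89 and 1.76 in the WT. AT1G72030 scored 0.376 and 0.146 in aln-1, against 1.22 and 1.1 in the WT. AT4G27050 gave 0.267 on both aln-1 arrays and 1.17 and 1.15 on the WT arrays, the tightest replicates among these genes. The differences of these genes were -0.923, -0.922, -0.902 and -0.892, in the order given.

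The remaining genes of the 15 largest falls lay between -0.84 and -0.73. AT4G27300 scored 0.535 and 0.480 in aln-1, against 1.33 and 1.35 in the WT. AT3G28540 scored 0.0218 and 0.205 in aln-1, against 0.976 and 0.837 in the WT. AT4G07730, the only pseudogene among the members by the gene table, scored 0.0225 and 0.0363 in aln-1, against 0.816 and 0.764 in the WT. In these genes the groups were separated by more than the replicates. AT2G42690 scored 0.921 and 0.483 in aln-1, against 1.43 on both WT arrays. AT3G05730 scored 0.579 and 0.822 in aln-1, against 1.17 and 1.72 in the WT, and was the only member whose WT replicate 2 exceeded replicate 1 by over 0.25. Its difference was -0.745 with all arrays and -0.470 without WT replicate 2.

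At the upper end of the scale, 5 members kept aln-1 means well above most of what was tested. AT2G41090 scored 2.12 and 1.72 in aln-1, against 2.55 and 2.39 in the WT. AT4G29735 gave 1.51 on both aln-1 arrays, against 2.05 and 1.98 in the WT. AT3G62550 scored 1.8 and 1.2 in aln-1, against 2.07 on both WT arrays. AT1G56220 (1.7 and 1.29 in aln-1, against 2.03 and 1.97 in the WT) and AT1G49750 (1.63 and 1.26 in aln-1, against 2.02 and 1.94 in the WT) completed this set. Apart from AT4G29735, the 2 aln-1 arrays of these genes disagreed by more than the 2 WT arrays did. Without aln-1 replicate 2 the difference was -0.353 for AT2G41090, -0.273 for AT3G62550, -0.299 for AT1G56220 and -0.345 for AT1G49750. Without aln-1 replicate 1 it was -0.871 for AT3G62550.

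**Figure D3:**
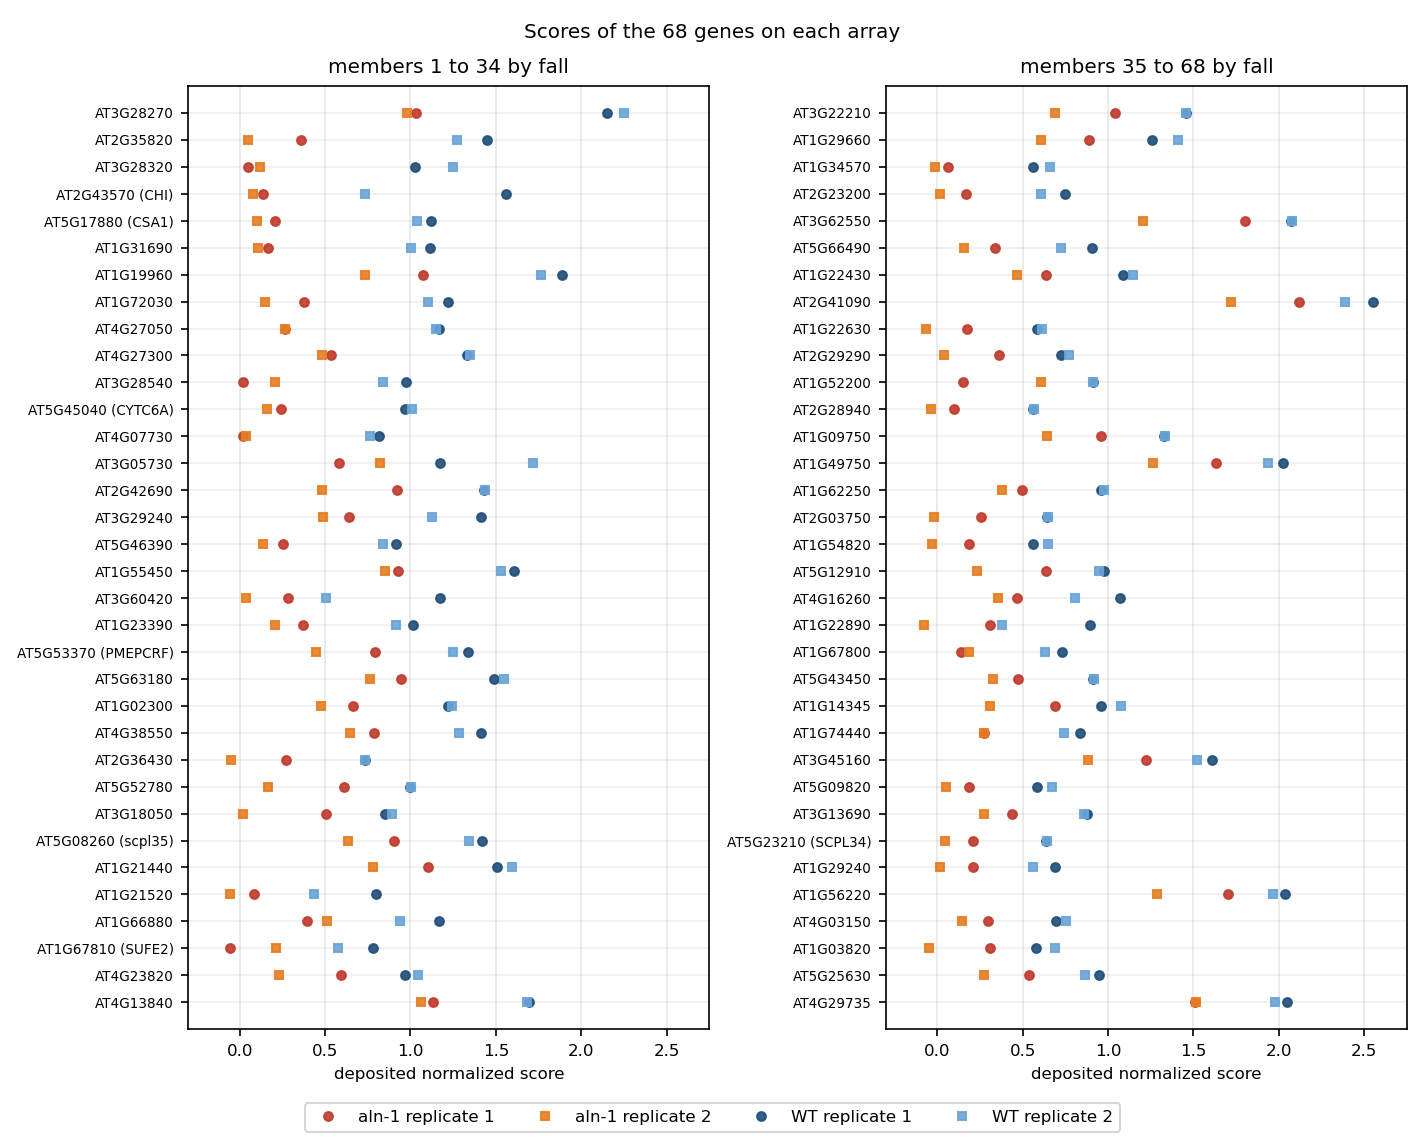
Score of each of the 68 members (horizontal axis, deposited score units) on the 2 aln-1 arrays (red and orange) and the 2 WT arrays (dark and light blue), ordered by the size of the fall from AT3G28270 (-1.19) to AT4G29735 (-0.501). Both aln-1 points lie left of both WT points in each row because the genes were chosen that way, and the orange square lies left of the red circle in 57 of the 68 rows.

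The gap between the lower WT array and the higher aln-1 array had a median of 0.434 and exceeded 0.5 in 20 members. It was under 0.1 in 1 member, AT1G22890, which scored 0.308 and -0.0802 in aln-1, against 0.894 and 0.380 in the WT, leaving a gap of 0.0715. AT3G60420 had a gap of 0.226, with 0.280 and 0.0364 in aln-1, against 1.17 and 0.506 in the WT. In both genes WT replicate 1 stood above the other 3 arrays. Without it the difference shrank to -0.266 for AT1G22890 and to -0.348 for AT3G60420. The third smallest gap was that of AT1G56220, at 0.266.

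Near the thresholds the choice of members was a matter of small distances. The members just inside a difference of -0.5 were AT1G03820 (-0.503), AT5G25630 (-0.502) and AT4G29735 (-0.501), and just outside it were AT5G03230 (-0.498), AT1G07280 (-0.497) and AT1G72810 (-0.497). The members with aln-1 means just above 0 were AT1G21520 (0.0138), AT1G34570 (0.0261) and AT4G07730 (0.0294). Just below 0 were AT3G21950 (-0.0202), AT4G10990 (-0.0287) and AT5G56850 (-0.0377). With -0.6 as the bound on the difference 32 genes would be taken, and with -0.4 there would be 136.

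The 2 aln-1 arrays were not alike for these genes. Replicate 1 scored above replicate 2 in 57 of the 68 members (83.8%), with a median distance of 0.166. The rule used both aln-1 scores, through their mean and the higher of them, so this distance is not independent of the choice. The comparison genes that follow were matched on the WT mean only. In 2956 other genes with a name whose WT means lay in the same range, replicate 1 was above replicate 2 in 60.6%, with a median distance of 0.0215. The 2 WT arrays leaned less in the members, replicate 1 being higher in 37 (54.4%) with a median distance of 0.0173. In the 2956 other genes WT replicate 1 was higher in 45.3%, with a median distance of -0.00673. After quantile normalization the WT shares were 64.7% in the members and 52.1% in the other genes. Measured from the WT mean, the members lay at a median of -0.490 on aln-1 replicate 1 and -0.714 on aln-1 replicate 2.

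The opposite held in the genes that were higher in aln-1. Of 319 genes with a name raised by at least 0.5 with no overlap between the groups, aln-1 replicate 1 was above replicate 2 in 62 (19.4%), with a median distance of -0.162. On aln-1 replicate 2, both the raised genes and the 68 members thus lay farther from the WT. In the 119 genes that fell by 0.5 or more to an aln-1 mean under 0, replicate 1 was above replicate 2 in 57.1%, with a median distance of 0.0151. The raised genes and these fallen genes were also chosen by their aln-1 scores. What lies behind the distance between the aln-1 arrays was not tested.

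**Figure D4:**
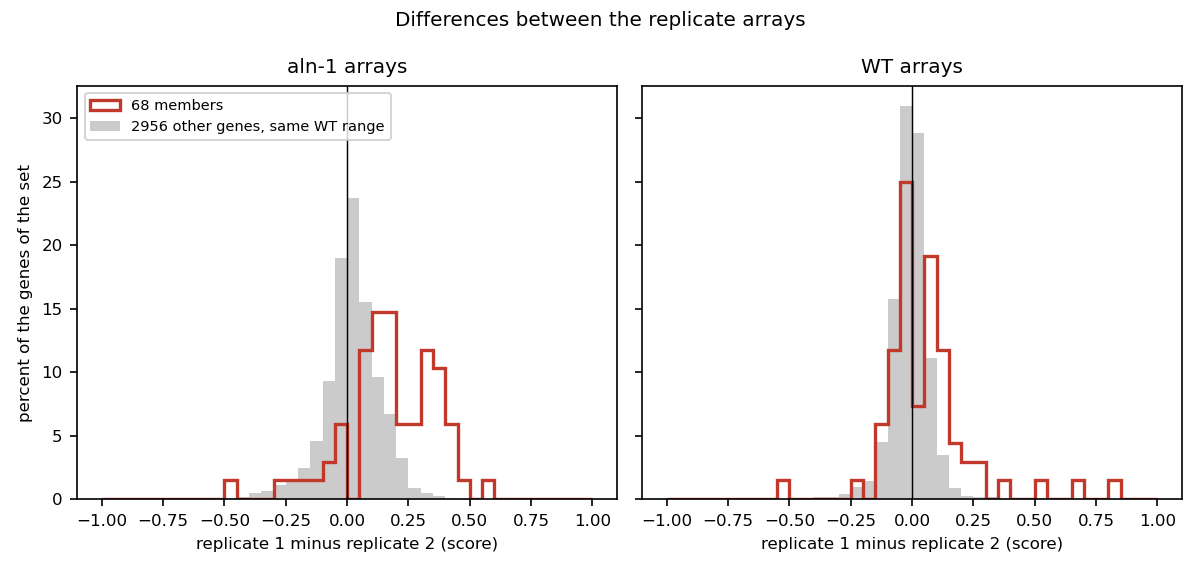
Distribution of replicate 1 minus replicate 2 (horizontal axis, score units) on the aln-1 arrays (left) and the WT arrays (right), as the percent of genes in each set, for the 68 members (red outline) and 2956 other genes with a name in the same range of WT means (gray). On the aln-1 arrays the members lie mostly to the right of 0 (57 of 68), and on the WT arrays they lie on both sides (37 of 68 above 0).

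In some members the aln-1 arrays differed so much that 1 array decided the size of the fall. The distance was largest in AT3G62550 (0.598), followed by AT3G18050 (0.484), AT1G52200 (-0.456), AT5G52780 (0.443) and AT2G42690 (0.438). AT3G18050 scored 0.503 and 0.0185 in aln-1, against 0.853 and 0.894 in the WT. AT5G52780 scored 0.608 and 0.165 in aln-1, against 0.995 and 1.01 in the WT. AT1G52200 ran the other way, with 0.150 and 0.606 in aln-1, against 0.909 and 0.911 in the WT. Leaving out 1 array moved the difference by over 1.5 times in 15 of the 68 members, 11 of them when aln-1 replicate 2 was left out, 3 for WT replicate 1, 2 for aln-1 replicate 1 and 1 for WT replicate 2, some genes counting more than once. Without aln-1 replicate 2 the difference was -0.371 for AT3G18050 and -0.392 for AT5G52780, and without aln-1 replicate 1 it was -0.304 for AT1G52200.

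Most members rested on a single probe set. Of the 68, 66 had 1 probe set with a single gene and 2 had a pair. The second probe set of AT1G31690 gave -0.478 and -0.428 in aln-1, against -0.0452 and -0.0479 in the WT, and so was also lower on both aln-1 arrays, with a difference of -0.406, against -0.923 on the probe set used. The second probe set of AT3G60420 gave -0.392 and -0.355 in aln-1, against -0.274 and -0.325 in the WT, a difference of only -0.0734. AT4G38550 and AT1G34570 were measured by probe sets of the class that can detect transcripts of several genes.

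The members were spread over all 5 chromosomes, with 26 on chromosome 1, 9 on chromosome 2, 11 on chromosome 3, 9 on chromosome 4 and 13 on chromosome 5. Chromosome 1 held 38.2% of the members and 26.0% of all genes with a name. A few members lay near one another in the gene order of the TAIR10.1 gene table. AT1G67800 and SUFE2 were direct neighbors, and AT1G67800 scored 0.137 and 0.187 in aln-1, against 0.732 and 0.632 in the WT. Both genes of this pair scored higher on aln-1 replicate 2 than on replicate 1, by 0.0503 in AT1G67800 and by 0.269 in SUFE2, against the lean of most members. AT3G28270 and AT3G28320, 2 of the 3 largest falls, had 5 genes between them, and AT1G21440 and AT1G21520 had 7.

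The genes next to the members were screened by the same rule, and those that met it are members and are not counted here. Of 67 measured genes directly beside a member, limma called 9 lower (13.4%, against 8.17% of all tested) and 3 higher (4.48%, against 7.42%). The median difference of the neighbors was -0.0569, against -0.0332 over all genes with a name. The largest falls were in WRKY53, a transcription factor gene of leaf senescence beside AT4G23820, at -0.771 ± 0.113 (SE, n = 2 each, limma adjusted p = 0.0174), and in AT4G38560, beside AT4G38550, at -0.753 ± 0.0871 (limma adjusted p = 0.0111). WRKY53 scored -0.342 and -0.291 in aln-1, against 0.620 and 0.290 in the WT, and AT4G38560 scored -0.452 and -0.453 in aln-1, against 0.422 and 0.178 in the WT. AT4G38550 itself is measured by a probe set that can detect several transcripts. AT2G29300, beside AT2G29290, was also called lower (-0.566 ± 0.0866, limma adjusted p = 0.0193). WRKY53, AT4G38560 and AT2G29300 met the rule on the difference and on the order of the arrays. Their aln-1 means, -0.316, -0.452 and -0.219, were under 0 and kept them out. In the other direction AT1G31710, beside AT1G31690, was higher by 0.602 ± 0.102 (limma adjusted p = 0.0241), with 1.18 and 1.43 in aln-1, against 0.618 and 0.784 in the WT. With the mean of its probe sets in place of the one with the highest mean, AT1G31710 was at 0.385 (limma adjusted p = 0.0270). Without WT replicate 1 none of these 4 genes was called, the adjusted p being 0.0614 for WRKY53, 0.0553 for AT4G38560, 0.123 for AT2G29300 and 0.153 for AT1G31710. Without WT replicate 2 the adjusted p was 0.0619 for AT2G29300 and 0.0814 for AT1G31710.

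Some of the genes lying between a pair of members were called as well. Between AT3G28270 and AT3G28320 the table lists 5 genes, of which AT3G28280 was at -0.0569 and not called (limma adjusted p = 0.486) and AT3G28310 was called lower at -0.457 ± 0.0546 (limma adjusted p = 0.0118). AT3G28310 scored -0.657 and -0.687 in aln-1, against -0.269 and -0.161 in the WT, so it was low in both genotypes. Between AT1G21440 and AT1G21520, SWEET1, which encodes a sugar transporter, was called lower at -0.346 ± 0.0786 (limma adjusted p = 0.0456), as was AT1G21480 at -0.237 ± 0.0460 (limma adjusted p = 0.0318). The other genes measured there, AT1G21500 at -0.288 (limma adjusted p = 0.0525) and AT1G21510 at -0.0176 (limma adjusted p = 0.801), did not pass the test. AT1G21500 was called under some alternatives, with adjusted p of 0.0181 without aln-1 replicate 1, 0.0322 with the replicate number as a block and 0.0462 after quantile normalization. The calls of AT3G28310, SWEET1 and AT1G21480 were lost without single arrays. Without WT replicate 1 the adjusted p was 0.0712 for AT3G28310, 0.133 for SWEET1 and 0.182 for AT1G21480, and without WT replicate 2 it was 0.0652, 0.184 and 0.151 in the same order. Without aln-1 replicate 2 it was 0.117 for SWEET1 and 0.0883 for AT1G21480, and with each array centered on its median it was 0.0530 for SWEET1.

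Of the 686 distinct genes in the 24 lists examined beside the members, 68 were matched to a probe set with a single annotated gene. Genes matched in this way are called measured here. The annotation listed no gene for 8730 probe sets, so a list gene can be on the array and stay unmatched. In 3 lists no gene was matched. The lists held none of the members, and their absence says little. The lists covered hormone pathways, defense, photosynthesis, nutrition, sugar metabolism, stress and cell type markers. Of the 68 measured list genes limma called 7 lower (10.3%, against 8.17% of all tested) and 12 higher (17.65%, against 7.42%). Of 10 measured genes for light harvesting, photosystem and carbon fixation proteins, 3 were called lower, 0 higher, and 7 did not pass the test. The 3 were PRK, the phosphoribulokinase of the Calvin cycle, at -0.429 ± 0.0824 (SE, n = 2 each, limma adjusted p = 0.0314), PSBY, a small photosystem II protein, at -0.304 ± 0.0695 (limma adjusted p = 0.0463), and RCA, the activase of Rubisco, at -0.292 ± 0.0619 (limma adjusted p = 0.0390). None of the 3 reached the size of fall that defined the members. PRK scored 1.95 and 1.72 in aln-1, against 2.25 and 2.27 in the WT, which is the same order of aln-1 arrays as in most members. BCAT4, an aminotransferase of glucosinolate synthesis, was called lower at -0.467 ± 0.0834 (limma adjusted p = 0.0267). SAG101, a partner of EDS1 in defense, was called lower at -0.399 ± 0.0698 (limma adjusted p = 0.0255) in a list of 2 measured genes of salicylic acid response. In the list for ABA, 4 of 46 genes were measured, COR47, COR15A, COR15B and LTI30, which are cold- and dehydration-response genes and not synthesis genes, and all 4 were called higher. In the list for JA synthesis and signaling 3 of 5 measured genes were called higher. Without WT replicate 1, or without WT replicate 2, 0 of the list genes were called lower by limma, with 10 at an unadjusted p under 0.05 in either case, and 1 and 6 were called higher. For PRK the adjusted p was then 0.172 and 0.147. Without aln-1 replicate 2 the adjusted p was 0.0867 for RCA and 0.0906 for PSBY, and with each array centered on its median it was 0.0543 for PSBY.

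Few genes of the cell type lists were matched to a probe set with a single annotated gene. Of the leaf markers FAMA, MUTE, SPCH and TRY, all regulators of epidermal cell types, 0 were called by limma. Their differences ran from -0.221 to -0.0751 with adjusted p between 0.0547 and 0.282. The means of MUTE, SPCH and TRY were -0.618, -0.473 and -0.655 in aln-1, against -0.398, -0.321 and -0.580 in the WT. They were low in both genotypes, so the lack of a call says little. FAMA was at -0.0700 in aln-1, against 0.103 in the WT. Of 3 genes matched by symbol in the root list, EXPA18 (0.236, limma adjusted p = 0.0918) was not called. PEP (0.0538, limma adjusted p = 0.424) was not called either, and whether its match, AT4G26000, is a root marker was not checked. EXPA7, an expansin of root hairs, was called higher, at -0.104 and 0.00141 in aln-1, against -0.277 and -0.324 in the WT (difference 0.25 ± 0.0551, SE, limma adjusted p = 0.0431). Its adjusted p was 0.0508 with the replicate number as a block, 0.108 without aln-1 replicate 2, 0.183 without WT replicate 1 and 0.187 without WT replicate 2. The tissue was labelled as aerial parts, and the part of other tissues in the values of the members was not tested. The 2 measured flower markers were not called, and no seed marker was measured by a probe set with a single gene.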

How the data were processed

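Affymetrix ATH1 arrays of 2 aln-1 and 2 WT samples were analyzed. The authors renormalized earlier array data with the SuperNORM service (three-parameter lognormal model) and deposited 1 normalized score per probe set and array. No source used here states how probes were summarized or the log base. The deposited table also holds p-values of the authors' own two-way ANOVA (group and interaction), which were not used. The number of arrays limits the precision, and no scan dates or slides were given.

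Of 22810 probe sets, 64 controls and 842 without values were left out. Probe sets with 1 annotated gene (13513) were reduced to the one with the highest mean per gene. Probe sets with several genes (503) or none listed (8730) stayed unnamed. The fit covered 21754 rows, of which 12719 were genes with a name. The platform annotation gave gene names, updated from the RefSeq gene table of TAIR10.1 (all 68 members matched), which also gave the order of genes along each chromosome, while no coordinates are printed because the build of the probe annotation is not given.

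Genotypes were compared with limma 3.58.1 (lmFit and eBayes, R 4.3.3) on the scores, two-sided, with Benjamini-Hochberg adjustment over all rows and calls at an adjusted p under 0.05. The fitting code was checked on simulated data. It called 44 of 100 simulated drops of 0.5 and 78 of 100 drops of 1.0, and 2 unchanged rows. A gene that was not called may therefore still differ. The members, gene lists and rules were chosen with earlier results of these data known. The members named were the 15 largest falls, the 5 highest aln-1 means, the 5 least even aln-1 pairs, the 3 smallest gaps, those nearest each threshold, and all with a name. Gene families, neighbors and replicate distances were chosen after values were seen. FDH, matched to a formate dehydrogenase, was not read as an epidermal marker. Alternatives were other scalings, filters, probe set rules, a replicate block and leaving out each array. Promoter motifs and product-name families were not analyzed here.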

Additional observations from a re-analysis of the deposited data

How the results depend on the processing

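No member changed sign under another scaling or another probe set rule. This was nearly fixed by the choice, because the members differed by at least 0.5 and 66 of the 68 had 1 probe set. Leaving out 1 array could not change a sign, because the rule put both aln-1 arrays below both WT arrays. Which genes met the rule depended on the arrays: 47 to 103 genes met it when 1 array was left out, 103 without aln-1 replicate 1 (55 shared with the 68) and 47 without aln-1 replicate 2 (33 shared). Quantile normalization gave 72 genes (65 shared) and centering each array on its median gave 55 (all among the 68), with median differences of the members of -0.599 and -0.573. A bound of -0.6 gave 32 genes, -0.4 gave 136, and an aln-1 mean of at least 0.2 gave 45. Without 1 array limma called 61 to 2372 rows lower and 71 to 2114 higher, against 1778 and 1615 with all arrays. The list genes called then ranged from 0 to 11 lower and from 1 to 15 higher. With aln-1 or WT left with 1 array, that array is assumed to vary like the other genotype. The share of higher calls changed with the scaling, with 1804 lower and 1864 higher after quantile normalization and 1504 lower and 1845 higher after centering.

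With the replicate number as a block, limma called 1854 rows lower and 1918 higher, and 7 and 13 of the list genes. Whether arrays with the same replicate number belong together is not stated in the sources used here. The replicate differences of aln-1 and WT had a correlation across genes of 0.0413. This cannot decide the question, and genes are not independent replicates. The calls of AT5G61590, scpl31, AT1G21500 and EXPA7 changed with the block. The difference of AT1G21510, which was not called, was 0.0249 after quantile normalization and 0.00103 after centering. The lean of the aln-1 arrays, 57 of 68 members, was 57 after quantile normalization and 58 after centering. The lean of the WT arrays, 37 of 68, was 44 and 37. These last 2 alternatives were added after seeing the data. Promoter motif alternatives were not run. With 2 arrays a genotype and no detection calls, low scores cannot be told from background.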
